A study of Arabidopsis thaliana with 4 samples.

Results

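Gibberellins are plant hormones that promote stem, petal and stamen growth and fertility. They bind the soluble GID1 receptors, and the receptor with its hormone captures the DELLA proteins, nuclear repressors of growth, which an SCF ubiquitin ligase then marks for destruction. The hormone level is set by oxidases: GA 20-oxidases and GA 3-oxidases make the active forms, and GA 2-oxidases inactivate them. In Arabidopsis flowers the DELLA proteins RGA, RGL1 and RGL2 hold back stamen and petal growth, and AGAMOUS (AG), the MADS-domain protein of stamen and carpel identity, is known to activate the GA 3-oxidase gene GA3OX1 (also named GA4).

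The genes described here are 10 of the 27444 protein-coding nuclear genes, picked by locus identifier. They are the receptor genes GID1A (AT3G05120), GID1B (AT3G63010) and GID1C (AT5G27320), the DELLA genes GAI (AT1G14920), RGA (AT2G01570), RGL1 (AT1G66350), RGL2 (AT3G03450) and RGL3 (AT5G17490), the catabolic gene GA2OX1 (AT1G78440) and the synthesis gene GA3OX1 (AT1G15550). AG bound to DNA was mapped by ChIP-seq with an antibody to GFP. The 2 AG-GFP libraries came from AG-GFP AP1-GR ap1 cal plants, and the 2 negative control libraries from AP1-GR ap1 cal plants, which lack the tagged protein. All plants were of the Ler-0 background and carried the 35S:AP1-GR transgene with the ap1 and cal mutations. All were treated with 10 µM dexamethasone at about 4 weeks of age, and inflorescences were taken 4 days later, at about stage 4 to 5 of flower development. The promoter of the AG-GFP construct is not given in the sources used here.

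Both deposited tables, a list of 1421 peaks and a table of 1958 target genes, hold the authors' values for AG-GFP and none per library. There is therefore no replicate error, no depth and no value in the control plants for any score below, and no test between samples could be made. The score is the Poisson score that the authors gave each peak, from 36.35 to 12585.03 with a median of 139.67, and it ranks peaks within this list only. A target gene has a peak position from 3000 bp before its 5′ end to 1000 bp past its 3′ end, and for each of 5 regions around the gene the table lists the highest score found there. Peak coordinates are on TAIR10.

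Peaks were assigned to receptor and DELLA genes and to the only catabolic gene of the list, GA2OX1. The only synthesis gene of the list, GA3OX1, had none. Of the 10 genes, 5 were in the target table (50.0%, 95% exact Clopper-Pearson interval 18.7 to 81.3%, counting error only), against 6.62% of all protein-coding genes. The genes were chosen with earlier results of these data known, so the count is a description and carries no test. By score, the order was GID1C (939.57), RGL2 (396.63), GID1B (210.92), GAI (86.64) and GA2OX1 (62.03). Their median was 210.92, against 143.81 over all 1958 target genes. No spread between libraries is available to say which neighbours in this order differ.

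**Figure D1:**
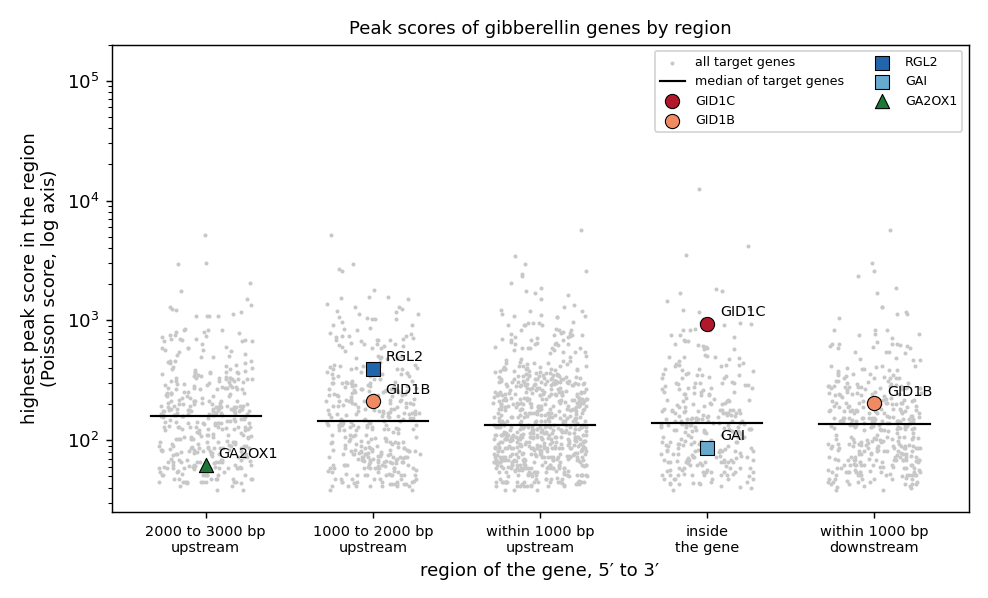
Highest Poisson peak score (log axis) in each of the 5 regions of the target table, from 5′ to 3′, with grey points for all target genes, black lines for their medians and large symbols for the gibberellin genes. GID1C at 939.57 stands near the top of the genes with a peak inside, RGL2 and both GID1B peaks lie above the medians of their regions, and GAI and GA2OX1 lie below theirs.

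Among the receptor genes, GID1C carried the strongest peak and GID1B carried 2 peaks. The GID1C peak lay on chromosome 5 from 9628962 to 9629326, 365 bp wide, with its highest point at 9629152. It was listed inside the gene, and by the RefSeq gene spans it ran across the end of the gene with the lower coordinate. Its score of 939.57 was the 64th of 1421 peaks, above 95.5% of them. Among the 299 target genes with a peak inside, GID1C ranked 14th, against a median score of 138.72 in that region.

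No other peak had the GID1C score, and no other target gene was linked to this peak. Of the 1237 peaks that could be linked to target genes, 580 (46.9%) had a single gene. The next peak in the list was 170030 bp away, against a median of 15684 bp between a peak and its nearest neighbour. The peak was also strong for its width: it scored above 88.8% of the 152 peaks within 10% of its width, whose median was 269.025.

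GID1B, whose protein also acts as a gibberellin receptor, had a peak position on each side of the gene and none inside it. The upstream peak, on chromosome 3 from 23288164 to 23288362, was 199 bp wide and scored 210.92 at 1000 to 2000 bp before the gene. The downstream peak, from 23291447 to 23291819, was 373 bp wide and scored 205.2 within 1000 bp past the 3′ end. By the RefSeq gene spans, part of this downstream peak reached into the gene. The scores were close, at the 476th and 495th rank of the 1421 peaks, although the widths were not. For its width the upstream peak stood high, above 78.2% of 170 peaks, and the downstream peak low, above 31.3% of 147 peaks.

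A peak in 2 regions was uncommon among target genes. Of the 1958, 150 (7.66%) had peaks in 2 or more regions, 27 had a peak both upstream and downstream, and 7 (0.358%), GID1B among them, had exactly the regions of GID1B. The positions of its peaks were 3542 bp apart, and 369 of the 1421 peaks (26.0%) had a neighbour at that distance or closer. Both peaks were shared. The upstream peak was also given to the tRNA genes AT3G63003 and AT3G63006, at 2000 to 3000 bp upstream of each, and the downstream peak to AT3G63020, annotated as an unknown protein, at 2000 to 3000 bp upstream. For both peaks GID1B was the nearest protein-coding gene.

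GID1A, the third receptor gene, was not in the target table. The nearest peak by gene order, on chromosome 3 from 1373551 to 1373797 with a score of 190.73, had 17 protein-coding genes between it and GID1A. Of the 25627 protein-coding genes outside the table, 72.2% had fewer genes between them and a peak.

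Among the DELLA genes, RGL2 and GAI had peaks, and RGA, RGL1 and RGL3 were not in the table. The RGL2 peak lay on chromosome 3 from 822671 to 822951, 281 bp wide, at 1000 to 2000 bp upstream. Its score of 396.63 was the 221st of 1421, above 84.3% of peaks. For its width the peak stood above 79.6% of 201 peaks with a median of 220.55. Of the 378 genes with a peak in that region, RGL2 ranked 69th, against a median of 145.825. RGL2 restrains germination and floral organ growth.

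The RGL2 peak was shared and was not nearest to RGL2. AT3G03460, which the table does not describe beyond similarity to unknown proteins, had the same peak within 1000 bp downstream and was the nearest protein-coding gene. AT3G03456, which the RefSeq table used here does not place, carried the same score within 1000 bp upstream, and its locus number lies between those of the other two. The score itself recurs: 3 peaks had exactly 396.63. One of these was the peak within 1000 bp upstream of SCR (AT3G54220), a GRAS gene, which is a different peak on the same chromosome, from 20069100 to 20069687.

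GAI, the DELLA gene in which the dwarfing gai mutation was found, had a 255 bp peak within its own span, on chromosome 1 from 5149312 to 5149566. Its score of 86.64 was low in the list, at rank 982 of 1421 and above 30.7% of peaks. Among genes with a peak inside, GAI ranked 210th of 299. For its width the peak was weak, above 14.4% of 188 peaks with a median of 185.0. It was linked to no other target gene. RGL2 thus had the higher-scoring peak but in a shared upstream stretch, and GAI the lower-scoring peak but within its own span.

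**Figure D2:**
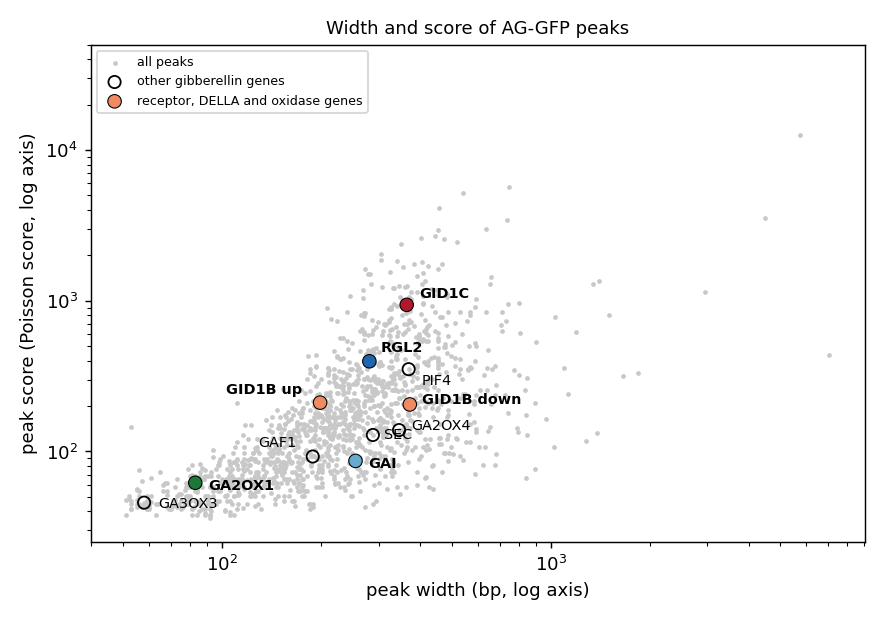
Width (bp) and Poisson score of all 1421 peaks in grey, both on log axes, with filled symbols for the 6 peaks of GID1C, GID1B, RGL2, GAI and GA2OX1 and open circles for the 5 peaks of other gibberellin genes. GID1C and the downstream peak of GID1B are 365 and 373 bp wide and score 939.57 and 205.2, while GA2OX1 and GA3OX3 lie at the narrow, low end.

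RGA, the closest relative of GAI and a main DELLA repressor of stem and floral growth, had its nearest peak by gene order 5 protein-coding genes away, on chromosome 2 from 230000 to 230126 with a score of 101.69. That peak was given to CLE16 and AT2G01510. For RGL1 there were 3 genes between, and the peak, on chromosome 1 from 24760621 to 24760812, scored 210.92 and was linked to no target gene. For RGL3 there were 29 genes between, and the peak, on chromosome 5 from 5862583 to 5862691, scored 58.19. Among protein-coding genes outside the table, 19.1% had a peak closer in gene order than RGL1, 31.3% closer than RGA and 86.7% closer than RGL3, and their median was 9 genes.

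GA2OX1, which inactivates gibberellins, had the lowest score of the 5 listed genes. It had a narrow peak of 83 bp, 2000 to 3000 bp upstream of it, that lay on chromosome 1 from 29515743 to 29515825. Its score of 62.03 was the 1189th of 1421 and is shared by 24 peaks of the list. For its width the peak was not weak, above 63.9% of 61 peaks with a median of 54.43. Within its region GA2OX1 ranked 321st of 379 genes, against a median of 160.72. No other target gene was linked to the peak, but AT1G78450, which is not in the table, was the protein-coding gene nearest to it.

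GA3OX1, which makes active gibberellins, had 12 protein-coding genes between it and the nearest peak, on chromosome 1 from 5397832 to 5398244. That peak scored 216.69 and was given to AVP1 (AT1G15690), a proton pump gene, within 1000 bp upstream. Of the protein-coding genes outside the table, 60.0% had a peak closer in gene order. A gene outside the table has no peak assigned at the authors' threshold, which is not given in the sources used here, and weaker binding there was not detectable in these files.

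**Figure D3:**
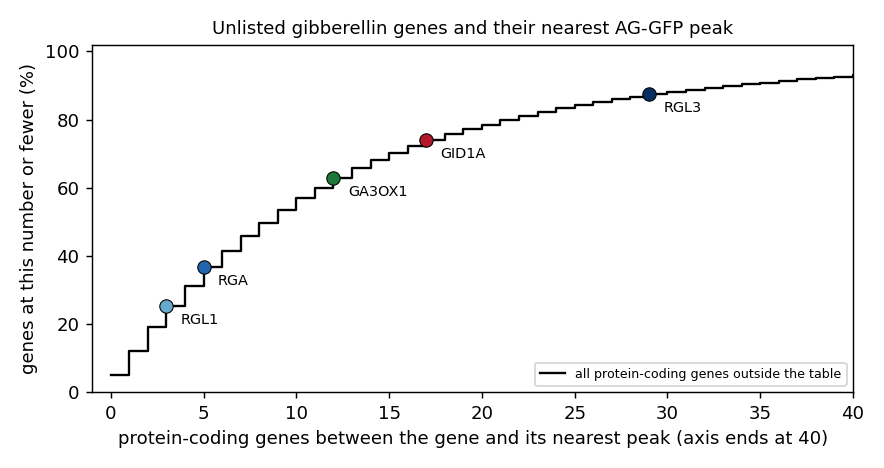
Number of protein-coding genes between a gene and its nearest AG-GFP peak (horizontal axis, up to 40) and the percentage of the 25627 protein-coding genes outside the target table at that number or fewer (line). Points mark the 5 gibberellin genes outside the table: RGL1 and RGA, with 3 and 5 genes between, lie below the median of 9, and GA3OX1, GID1A and RGL3, with 12, 17 and 29, lie above it.

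The count depended on how a target was defined. Among peaks that reached the median score, GID1B, GID1C and RGL2 were left, 3 of 10 against 3.42% of protein-coding genes. With peaks within 1000 bp upstream or inside the gene, GID1C and GAI were left, 2 of 10 against 3.31%. With each peak given to its nearest protein-coding gene alone, GID1B, GID1C and GAI were left, 3 of 10 against 3.99%. Only genes already in the target table were kept here, so no gene could be added. The 3.99% was counted in the same way. GID1C was the only one of the 10 genes that met all of these definitions. Leaving out the widest 1% of peaks (6.61% of protein-coding genes) gave the same 5 genes. Adding genes with any part of a peak within 1000 bp to those already listed (6.93%) kept these 5 by construction. It added no other of the 10 genes.

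Targets were also found in the rest of the gibberellin pathway. Of 40 other genes of synthesis, catabolism, DELLA regulation and downstream response, 5 were in the table (12.5%, exact interval 4.19 to 26.8%). The share of all protein-coding genes, 6.62%, lay within that interval, and no test was made. The scores of these 5 genes ran from 45.78 to 351.68 with a median of 128.71. The highest was at PIF4 (AT2G43010), a bHLH growth regulator that DELLA proteins bind. The peak, within the gene, scored 351.68, above 81.4% of peaks, and lay on chromosome 2 from 17886365 to 17886734.

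SEC (AT3G04240), an O-GlcNAc transferase that modifies DELLA proteins, had a peak of 128.71 on chromosome 3 from 1120727 to 1121014, inside the gene by the table. That peak was shared with AT3G04250, an F-box-related gene. GAF1 (AT3G50700), a zinc finger protein and DELLA partner, had one of 92.65 on chromosome 3 from 18843014 to 18843202, within 1000 bp downstream. GA2OX4 (AT1G47990), a GA 2-oxidase gene, had a peak on chromosome 1 from 17699726 to 17700071 that lay inside it and scored 138.72, just under the median peak of 139.67. GA3OX3 (AT4G21690), a GA 3-oxidase gene active in flowers, had a peak of 58 bp, 1000 to 2000 bp upstream of it, that lay on chromosome 4 from 11525804 to 11525861. It scored 45.78, above 5.14% of peaks.

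By role over all 50 genes, 2 of 3 receptors, 2 of 5 DELLA genes and 1 of 4 regulators of DELLA proteins were targets. So were 2 of 11 catabolic, 2 of 13 downstream and 1 of 14 synthesis genes. The share of all protein-coding genes was 6.62%, and that of synthesis genes, at 7.14%, was near it. All receptors and DELLA genes were among the 10 genes chosen with earlier results known. The oxidase families had 2 of 7 for GA 2-oxidases, 1 of 4 for GA 3-oxidases and 0 of 5 for GA 20-oxidases. The F-box genes SLY1 and SNE, which mark DELLA proteins for destruction, and SPY were not in the table. Neither were MYB33, MYB65 and MYB101, the GAMYB-like genes of anthers, nor the early synthesis genes GA1, GA2, GA3, KAO1 and KAO2. These counts are too small to rank the roles, and differences between them were not tested.

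**Figure D4:**
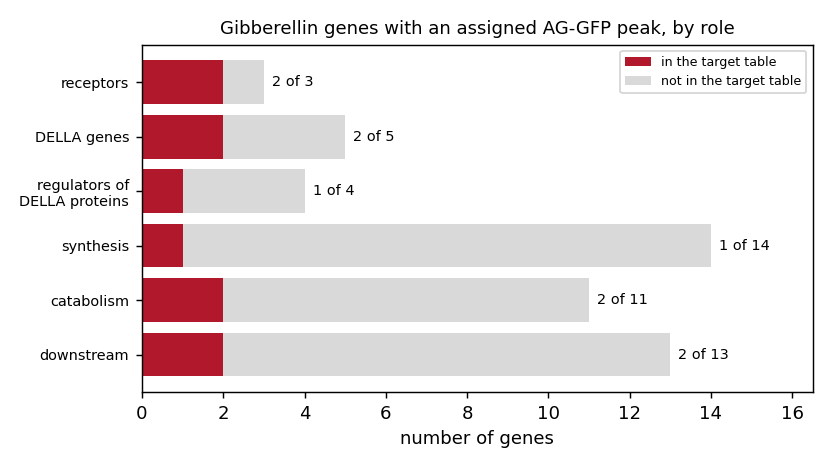
Number of gibberellin genes in the target table (red) and not in it (grey) for each of 6 roles, for the 10 receptor, DELLA and oxidase genes and 40 other pathway genes together. Receptors have 2 of 3 genes in the table and synthesis genes 1 of 14, against 6.62% of all protein-coding genes.

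Of the 35 unlisted pathway genes, 4 (11.4%) had at most 1 protein-coding gene between them and a peak, close to the 12.1% of all protein-coding genes outside the table. GA20OX2 (AT5G51810) and GA20OX3 (AT5G07200), which act in the later steps of synthesis, each had 1 protein-coding gene between them and a peak, scoring 700.87 and 690.4. The first peak was given to AT5G51795 and AT5G51800, and the second to the receptor kinase gene ERL2 and to ATS3. ELA2 (AT5G24900), a cytochrome P450 gene of gibberellin inactivation, had no gene between it and a peak of 408.1 on chromosome 5 from 8561238 to 8561468, which was given to AT5G24890. ELA1 (AT5G24910), its neighbour and also a cytochrome P450 gene of gibberellin inactivation, had 1 gene between it and the same peak. The 35 genes had a median of 11 genes between them and a peak, against 9 for all protein-coding genes outside the table.

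Target genes with the same scored regions and the closest scores were as follows. For GID1C, out of 247 other genes with a peak inside the gene alone, they were AT5G58900, annotated as a MYB-family gene (950.05), and the ethylene signalling gene EIN2 (922.88). For GID1B, out of 6 other genes, they were TEL1 (179.13), a mei2-like gene, and the phosphatidylserine synthase gene PSS1 (286.74). For RGL2 they were AT5G66440 and LPPepsilon2, both at 396.4 from the same peak of 424 bp. For GAI they were AT2G41550 (86.49) and MYB108 (85.33), and for GA2OX1 AT4G17486 (62.03) and AT5G62650 (60.91).

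DELLA proteins belong to the GRAS family of transcription regulators. Of 12 other genes whose RefSeq names mention GRAS or scarecrow, only SCR was in the table (8.33%, exact interval 0.211 to 38.5%), a share near the 6.62% of all protein-coding genes. The authors' annotation names 3 further GRAS-type targets that those names miss: AT3G50650 (SCL7) with a score of 734.98, AT5G67411 with 338.48 and AT5G66770 with 110.99. These were found after the values were seen and have no denominator. AT3G50650 had its peak at 1000 to 2000 bp upstream, the region in which RGL2 had its own, as had 19.3% of all target genes. AT5G66770 also had a peak in that region, with a score of 65.95, besides its 110.99 downstream.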

How the data were processed

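Peak positions and Poisson scores were taken from the peak list and target table as the authors deposited them, with TAIR10 as the build named in the submitters' processing notes. What aligner, peak caller and threshold were used, and whether replicates were pooled, is not given in the sources used here. The position and score headers of the peak list are exchanged: for all 1421 peaks the entry headed score is a coordinate within the peak, so columns were read by their values. Names and gene order came from a RefSeq table of TAIR10.1, which held 1916 of the 1958 target genes (97.9%). Its coordinates are not printed. A gene was linked to a peak of equal score on its chromosome within 3000 bp of its span. The accuracy of this step where genes share a peak or peaks have equal scores was not tested. No genome sequence was used here, so the planned CArG-box search was not run and no sequence is shown. The genes and lists were chosen with earlier results of these data known. The text names the 10 genes, pathway genes in the table, genes sharing their peaks, the 2 target genes most alike in regions and log2 score, and the nearest peak of each unlisted gene. The 4 unlisted pathway genes with at most 1 gene before a peak and the 3 GRAS-type targets named by annotation were picked after their values were seen, as was the comparison of peaks within 10% of a width. GRAS genes were matched by RefSeq name, leaving out SC35-like splicing factors. Python 3.11.15, pandas 2.3.3, numpy 2.4.6, scipy 1.17.1 and matplotlib 3.10.9 were used.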

Additional observations from a re-analysis of the deposited data

How the results depend on the processing

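Of the 10 genes, 5 were in the target table as deposited, 3 when a peak had to reach the median score, 2 with peaks within 1000 bp upstream or inside the gene and 3 with the nearest protein-coding gene alone. Of the 40 other pathway genes, 5 were in the table, 1 (2.5%, against 3.42% of protein-coding genes) when a peak had to reach that score and 3 (7.5%, against 3.31%) with peaks within 1000 bp upstream or inside the gene. The nearest-gene assignment kept only genes already listed, so neither count could rise. It left all 5 of the other pathway genes (12.5%, exact interval 4.19 to 26.8%, against 3.99% of protein-coding genes), and no test was made. The width alternative changed neither count. The whole-peak alternative only adds genes to those listed, so neither count could fall, and neither rose. SCR was the only named GRAS target in all of these settings, which were added for that list after the data had been seen. Of the 5 listed genes, 2 shared a peak whether links needed the equal score or position alone. Shared peaks were common in the list: only 46.9% of linked peaks had a single target gene, a share counted per peak and not per gene. Ranked by the sum over the 5 regions, GID1B moved to 307th among target genes, against 675th by its highest score, and the other 4 genes moved by less than 1.5 times. No paired analysis was possible because the files give no value per library, and no replicate could be left out. Depth is unknown, so weak binding at unlisted genes was not detectable here.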

Other observations

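Beyond the fixed lists, the authors' annotation names gibberellin for 3 further target genes, found by a search of the deposited text after the scores were known. ATH1 (AT4G32980), a homeobox gene that the annotation describes as a regulator of gibberellin synthesis, had a peak within 1000 bp upstream with a score of 2044.38, higher than that of any gibberellin gene described above. The annotation already lists ATH1 as activated by AG in an ap1 cal background. DDF2 (AT1G63030), an AP2-domain gene whose overexpression lowers gibberellin synthesis per that annotation, had a peak of 285.02 within 1000 bp downstream. FPF1 (AT5G24860), placed by the annotation in gibberellin signalling during the start of flowering, had one of 152.42 within 1000 bp downstream.

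Equal scores were common in the list. The 1421 peaks had 568 distinct scores, and the 210.92 of the upstream GID1B peak was found at 10 peaks, one of which was the peak nearest to RGL1 on another chromosome.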
